A study of Mus musculus with 30 samples.

Results

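The genes described here are 10 ion channels, transporters and regulators of the retinal pigment epithelium (RPE), the pigmented layer behind the photoreceptors. They were picked by symbol: Best1, Kcnj13, Slc16a8, Slc16a1, Bsg, Clcn2, Clic6, Aqp1, Slc6a20a and Otx2, each of which matched 1 of the 55573 genes in the table of RPE values. Otx2 is a transcription factor and Bsg a membrane glycoprotein, so the set holds 8 channels and transporters and 2 genes that serve them. RNA was sequenced from RPE shaken off the posterior eyecup of mice at postnatal day 25 (P25) of 4 genotypes, namely wild type (B6 WT, 6 libraries), Mertk-/-V1 (6), Mertk-/-V2 (3) and Mertk-/-V3 (3), and from bone marrow-derived macrophages (BMDMs, grown in L929-conditioned medium) of the same genotypes (3 libraries each), which serve here as a cell type without the epithelial functions. The labels give C57BL/6J as the strain of every group. Mertk-/-V1 carries a germline Mertk deletion with a neomycin cassette left in place, was made in 129P2 embryonic stem cells, was crossed to C57BL/6J over at least 10 generations, and still holds a stretch of 129P2 chromosome 2. Mertk-/-V2 carries a germline excision of a floxed Mertk exon, and the floxed mice came from C57BL/6NJ embryos. The excision was induced by 4-hydroxytamoxifen in mice with a Rosa26ERT2Cre transgene, which was later bred out. Mertk-/-V3 carries a CRISPR deletion made in C57BL/6NJ eggs, and both of these lines have a mixed C57BL/6J and C57BL/6NJ background. None of the 10 genes lies on chromosome 2.

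The RPE moves salt, water, lactate and nutrients between the retina and the choroidal blood supply. Chloride and potassium channels set its membrane potential and the salt gradient that water follows, while monocarboxylate transporters carry lactate, which photoreceptors produce in large amounts, out of the space below the retina. Bsg (basigin) is the partner that takes monocarboxylate transporters to the cell surface, and Otx2 is a homeodomain factor needed for RPE identity.

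The tissue matched its label but also held other ocular cells. All 10 RPE markers (Rpe65, Rlbp1, Lrat and others) were detected, with sums of 251544 to 970917 normalized counts per RPE library against 1054 to 1349 in BMDMs. All 12 rod markers were detected too, and their sum ran from 37329 to 918320 normalized counts. The lowest RPE marker sums came from Mertk-/-V1 replicates 6 and 5 and Mertk-/-V3 replicate 1 (251544, 317423 and 345946), and the highest rod sum was that of Mertk-/-V1 replicate 5. Mertk itself fell in RPE of Mertk-/-V1 (log2 fold change -1.46, adjusted p = 0.00267) and Mertk-/-V3 (-2.01, adjusted p = 0.00222) but not in Mertk-/-V2 (0.39, adjusted p = 0.954), where a count over all remaining exons does not check the deletion. Depth was 14137666 to 34124049 reads on genes in RPE and 16629659 to 25653814 in BMDMs. In bulk tissue, fewer cells of a type and less RNA per cell cannot be told apart.

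In B6 WT RPE the genes ranked from Bsg down to Best1, and 9 of the 10 were expressed well above macrophages. Levels between genes are given as counts per 1e6 reads on genes (CPM) per kb of exon (± SD, n = 6). Bsg stood highest at 1339 ± 141 and did not overlap the next gene. Slc16a8, which encodes MCT3, the monocarboxylate transporter of the basolateral RPE membrane, reached 317 ± 73.6. Its range met that of Clic6, an intracellular chloride channel family member, at 230 ± 31.6. Slc16a1, which encodes MCT1, the apical monocarboxylate transporter, stood at 223 ± 24.1, also overlapping Clic6. These lactate genes and Clic6 thus formed the top of the order.

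Below them came Otx2 at 126 ± 10.9, which overlapped none of its neighbours. Kcnj13, which encodes the inward rectifier potassium channel Kir7.1, reached 76.6 ± 6.71, and Slc6a20a, a proline and imino acid transporter, 65.01 ± 5.30, with overlapping ranges. Aqp1, a water channel, was at 36.3 ± 10.3. Clcn2, which encodes the voltage-gated chloride channel ClC-2, was at 19.0 ± 2.74, partly within the range of Aqp1. Best1 was far lower at 0.453 ± 0.102, although bestrophin 1 is a classical chloride channel of this epithelium. All 18 RPE libraries had between 18.5 and 52.9 normalized counts of Best1, so its low level was not a matter of a few libraries.

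Set against B6 WT macrophages (CPM, mean of each tissue), the fold difference was 8.15 for Bsg, 33.0 for Slc16a1 and 365 for Clcn2. For Best1 it was 1.57, and the ranges of both tissues overlapped. Otx2 and Slc6a20a had 0 reads in all 12 BMDM libraries and stood at least 3769-fold and 1875-fold higher in RPE, taking 3 reads in the shallowest B6 WT BMDM library as the floor. Slc16a8 had 10 reads over all 12 BMDM libraries, Clic6 and Aqp1 4 each, and Kcnj13 2. Both tables were normalized separately, so no test was made between RPE and macrophages.

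**Figure D1:**
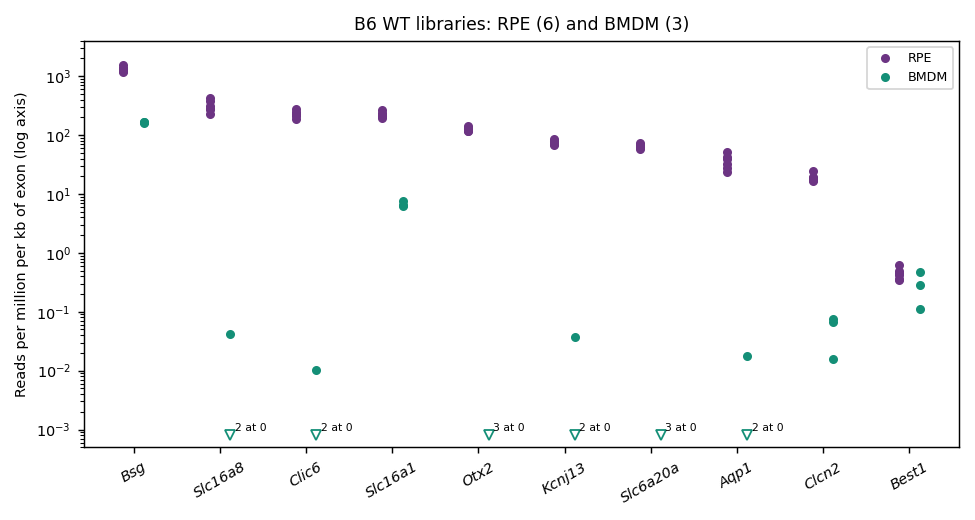
Level of each gene in B6 WT RPE (6 libraries, purple) and B6 WT BMDMs (3 libraries, green), in CPM per kb of exon on a log axis, each point a library and open triangles counting libraries at 0. Bsg is highest in both tissues, and Best1 is the gene whose RPE and BMDM points overlap.

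All 10 are protein-coding genes, placed here in GRCm38. The lactate genes are Slc16a1 at chr3:104638668-104658462 (ENSMUSG00000032902), Slc16a8 at chr15:79251014-79254761 (ENSMUSG00000032988) and Bsg at chr10:79704491-79711969 (ENSMUSG00000023175). The channels are Best1 at chr19:9985174-10001633 (ENSMUSG00000037418), Kcnj13 at chr1:87386363-87394729 (ENSMUSG00000079436), Clcn2 at chr16:20702964-20717746 (ENSMUSG00000022843) and Clic6 at chr16:92485736-92541243 (ENSMUSG00000022949), of which the last pair share chromosome 16. The others are Aqp1 at chr6:55336432-55348555 (ENSMUSG00000004655), Slc6a20a at chr9:123634770-123678885 (ENSMUSG00000036814) and Otx2 at chr14:48657677-48673819 (ENSMUSG00000021848). Counting could mix some members with their neighbours, because strand was not stated. The main case is Kcnj13, of whose annotated exon bases 49.1% (623 bp) lie opposite exons of Gigyf2. Gigyf2 ran at 2334 to 3047 normalized counts in RPE and at 1318 ± 73.7 (SD, n = 3) in B6 WT BMDMs, where Kcnj13 was at or near 0. Slc6a20a shares 563 bp (13.8%) with the antisense gene Gm17120, which had 15.6 to 120 normalized counts in RPE, and has a close paralog, Slc6a20b, so its counts are less certain. Otx2 shares 154 bp with Otx2os1 (595 to 1242 normalized counts) and, on its own strand, 168 bp (3.98%) with Gm49154 (40.7 to 135 normalized counts), and Clcn2 shares 85 bp with Fam131a and 82 bp with Polr2h. The other 6 genes share no exon base with another annotated gene.

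Promoter windows of 300 bases (250 before the start and 50 after it) were found for 8 of the 10 genes in RefSeq (build GRCm38.p6), 11 windows in all. They were searched on both strands for TAATCC, the homeodomain motif bound by OTX2, and for the E-boxes CACGTG and CATGTG, which factors of the MITF family bind. The 4 windows below are shown because each holds a match: Slc16a1, the member with the largest Mertk-/-V1 difference, Otx2 (1 of its 4 windows), Kcnj13 and Best1. Each runs 5′ to 3′ on the strand of its gene, and capitals mark the match, which reads as the reverse complement where it is on the other strand.
Slc16a1, chr3:104638414-104638713, plus strand: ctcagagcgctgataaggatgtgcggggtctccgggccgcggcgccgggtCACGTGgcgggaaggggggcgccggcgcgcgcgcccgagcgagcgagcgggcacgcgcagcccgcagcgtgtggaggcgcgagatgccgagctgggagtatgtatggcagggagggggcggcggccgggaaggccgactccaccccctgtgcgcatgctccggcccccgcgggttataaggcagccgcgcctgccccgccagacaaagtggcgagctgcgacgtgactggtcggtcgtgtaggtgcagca
Otx2, chr14:48665060-48665359, minus strand: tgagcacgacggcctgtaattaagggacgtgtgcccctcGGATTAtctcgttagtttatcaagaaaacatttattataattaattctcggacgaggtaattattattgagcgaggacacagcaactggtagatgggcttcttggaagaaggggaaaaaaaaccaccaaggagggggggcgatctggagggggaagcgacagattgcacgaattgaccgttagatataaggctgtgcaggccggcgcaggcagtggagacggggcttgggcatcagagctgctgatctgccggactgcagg
Kcnj13, chr1:87394680-87394979, minus strand: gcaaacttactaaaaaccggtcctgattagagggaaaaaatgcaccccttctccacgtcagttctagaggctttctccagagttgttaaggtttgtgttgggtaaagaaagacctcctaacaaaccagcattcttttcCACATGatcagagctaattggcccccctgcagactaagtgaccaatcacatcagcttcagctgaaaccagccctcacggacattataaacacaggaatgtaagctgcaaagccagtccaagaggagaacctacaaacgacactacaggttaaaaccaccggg
Best1, chr19:10001584-10001883, minus strand: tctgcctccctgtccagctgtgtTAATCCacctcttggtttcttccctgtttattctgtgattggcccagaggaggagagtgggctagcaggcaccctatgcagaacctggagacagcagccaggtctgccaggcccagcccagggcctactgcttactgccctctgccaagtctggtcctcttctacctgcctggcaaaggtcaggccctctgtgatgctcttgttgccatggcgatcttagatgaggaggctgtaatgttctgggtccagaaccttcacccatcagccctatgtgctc

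TAATCC occurred in the Best1 window (227 bases before the start) and in the printed Otx2 window (211 bases before it, other strand), that is in 2 of 11 windows, against 7.06% of all 32851 windows, or in 2 of 8 genes, against 8.14% of 27025 genes. CACGTG occurred only in the Slc16a1 window among those searched, 200 bases before its start, and in 7.15% of all windows. CATGTG occurred in Kcnj13 (112 bases before, other strand) and in another Otx2 window (124 bases before, other strand), and in 14.2% of all windows. Windows of Slc16a8, Clcn2, Aqp1 and Slc6a20a held none of the 3. A match is a run of letters and not a shown binding site.

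The first comparison asks whether loss of Mertk in the Mertk-/-V1 line, whose retina is known to degenerate, went with other levels of these genes at P25. In the model over all 18 RPE libraries (limma, Benjamini-Hochberg adjustment over 18832 genes), 0 of the 10 members passed an adjusted p of 0.05, where 0.388% of all genes did (73 genes). edgeR and DESeq2 on the recovered reads also called 0 members. At an unadjusted p of 0.05, 6 of the 10 were lower and none higher, where 6.81% of all genes passed in either direction and 3.5% were lower. 8 of the 10 estimates were negative, with a median of -0.57 on the log2 scale against 0.02 over all genes tested.

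Among the lactate genes, Slc16a1 had the largest difference. Its normalized counts ran from 20817 over a median of 25918 to 32312 in B6 WT, and from 8575 over 15989 to 22970.4 in Mertk-/-V1. Most Mertk-/-V1 libraries lay below all B6 WT libraries, but the ranges overlapped. The log2 fold change was -0.80 (SE 0.243, 95% confidence interval -1.32 to -0.29, adjusted p = 0.308).

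Bsg ran from 50398 over 63480.4 to 78504 in B6 WT and from 27429 over 46937 to 56439.7 in Mertk-/-V1. Its difference of -0.58 (SE 0.211, adjusted p = 0.540) was as large as that of Slc16a8. Slc16a8 was more variable in both genotypes, at 12667 to 27043 (median 18205) and 5505 to 21083 (median 15285), with a log2 fold change of -0.58 (SE 0.328, adjusted p = 0.787). The spread between Slc16a8 libraries was thus wider than the difference.

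Of the channels, Clic6 came next in size. It ran from 17451 over 24149.6 to 30210.4 in B6 WT and from 7434 over 16975 to 22313 in Mertk-/-V1, a log2 fold change of -0.71 (SE 0.270, adjusted p = 0.589). Kcnj13 was at 2128 to 3037 (median 2515) against 855 to 2835 (median 1962), with -0.57 (SE 0.286, adjusted p = 0.750). Of its Mertk-/-V1 libraries 4 (855, 1084, 1934 and 1990.4) lay below every B6 WT library, as 3 did for Clic6. Clcn2 ran from 2502 to 3999 (median 2865) and from 1413 to 3185 (median 2238), with -0.51 (SE 0.228, adjusted p = 0.696).

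Best1 showed no difference that could be resolved at its depth of 14 to 66 reads per library of these genotypes. Its values were 21.98 to 42.6 (median 29.6) in B6 WT and 20.5 to 52.9 (median 31.4) in Mertk-/-V1, and the interval of the log2 difference was -0.39 to 0.60. Slc6a20a, in contrast, lay at 5610.2 to 8249.5 (median 7152) and 2789 to 6630.02 (median 5228), with -0.60 (SE 0.245, adjusted p = 0.641). Otx2 had the smallest of the negative differences, -0.46 (SE 0.182, adjusted p = 0.631), with 11648 to 16691 (median 13739.9) against 7475 to 13529 (median 10845).

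Aqp1 went the other way from the other transporters. It ran from 1773 over 2378 to 3275 in B6 WT and from 2315 over 2957 to 4550.4 in Mertk-/-V1, a difference of 0.33 (SE 0.193, adjusted p = 0.793) whose interval, -0.08 to 0.73, held 0. All 10 RPE markers had negative estimates in the same comparison (median -0.57), none of which was called, while the 12 rod markers had positive ones (median 0.23, none called) and 7 of 8 macrophage markers as well (median 0.60), of which C1qa, a complement gene, rose (1.04, adjusted p = 0.0346). Csf1r was the marker with a negative estimate (-0.42), and the other 7 summed to 1639 to 2829 normalized counts in B6 WT and 2639.96 to 3722 in Mertk-/-V1. The part of these cell types in the members' differences was not tested.

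**Figure D2:**
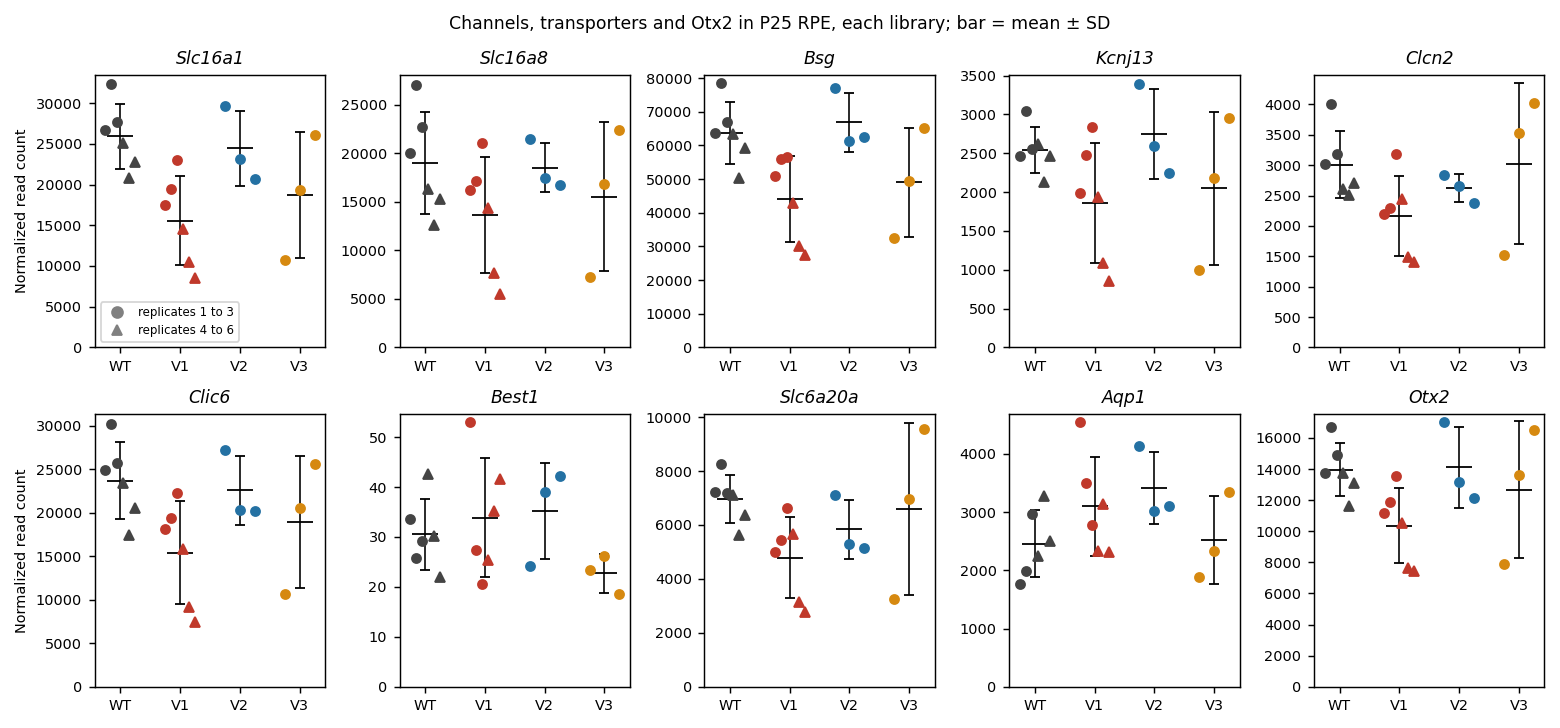
Normalized read count of each gene in each of the 18 RPE libraries, by genotype; circles are replicates 1 to 3, triangles replicates 4 to 6, bars the mean ± SD. In 8 of the panels, Best1 and Aqp1 being the exceptions, the lowest points are Mertk-/-V1 replicates 5 and 6 and Mertk-/-V3 replicate 1.

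The Mertk-/-V1 and B6 WT libraries come in replicates numbered 1 to 3 and 4 to 6, and the other genotypes only in 1 to 3. What the numbers stand for is not given in the sources used here, but the libraries differed by them. Between both sets of numbers, 41.9% of all genes passed the test (51.7% at an unadjusted p of 0.05). Among the members 4 of 10 fell in replicates 4 to 6, against 21.5% of all genes that fell: Slc16a8 (-0.87, adjusted p = 0.0162), Clic6 (-0.68, adjusted p = 0.0201), Slc16a1 (-0.60, adjusted p = 0.0230) and Bsg (-0.50, adjusted p = 0.0273). The count depended on single libraries and was 0 in B6 WT alone and 5 in Mertk-/-V1 alone. In B6 WT alone only 57 genes were called, so the 0 there is not particular to the members. The count of members was 1 without B6 WT replicate 5 or without Mertk-/-V1 replicate 6. It was 2 without B6 WT replicate 2 or Mertk-/-V1 replicate 3, and 8 without Mertk-/-V1 replicate 4. Over all fits that left out a library, 5564 to 9758 genes were called. All 12 rod markers rose in the same comparison (median 2.05) and 4 of 10 RPE markers fell (Rpe65, Rlbp1, Lrat and Ttr, list median -0.68).

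Within each set, Mertk-/-V1 lay apart from B6 WT for 4 members. Slc16a1 was at 17426 to 22970.4 in Mertk-/-V1 and at 26728 to 32312 in B6 WT among replicates 1 to 3, and at 8575 to 14553 and 20817 to 25107 among replicates 4 to 6. Bsg was at 50931 to 56439.7 and 63568 to 78504, then at 27429 to 42944 and 50398 to 63393. Neither gene overlapped within either set.

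The same held for Clic6, at 18118 to 22313 and 24909 to 30210.4, then 7434 to 15832 and 17451 to 23390.5. It held more narrowly for Otx2, at 11160.2 to 13529 and 13719 to 16691, then 7475 to 10529 and 11648 to 13761. These 4 of 10 compare with 1.7% of all genes whose Mertk-/-V1 libraries lay below B6 WT in both sets, and 1.09% whose lay above it in both, as no member did. The 4 genes are among 8 members that moved together across the RPE libraries (r 0.85 to 0.98), so they are not independent cases. The RPE marker sum parted in the same way. Among replicates 1 to 3 it was 600768 to 722236 in Mertk-/-V1 and 782039 to 957262 in B6 WT. Among replicates 4 to 6 it was 251544 to 525375 and 604443 to 783716. What RPE content contributes to the parting of the 4 genes was not tested. Slc6a20a parted from B6 WT only among replicates 1 to 3, and Kcnj13 and Clcn2 only among replicates 4 to 6. The share of all genes that part within a single set was not counted. The choice to look at both sets was made with the values in view, so this is a description.

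Fits within each set gave no call of a member, where 19 genes were called within replicates 1 to 3 and 46 within replicates 4 to 6. For Slc16a1 the log2 fold change was -0.54 (adjusted p = 1) in replicates 1 to 3 and -1.06 (adjusted p = 0.143) in replicates 4 to 6, and with the set as a term -0.80 (adjusted p = 0.0816). With the replicate number as a block, 131 genes and 0 members were called, and Slc16a1 had an adjusted p of 0.119. Aqp1 stood at 0.69 (adjusted p = 0.878) in replicates 1 to 3 and -0.04 (adjusted p = 0.947) in replicates 4 to 6. The difference between both sets in the Mertk-/-V1 effect was called for 0 members and 0 genes (limma), and at an unadjusted p of 0.05 for 5.48% of genes.

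**Figure D3:**
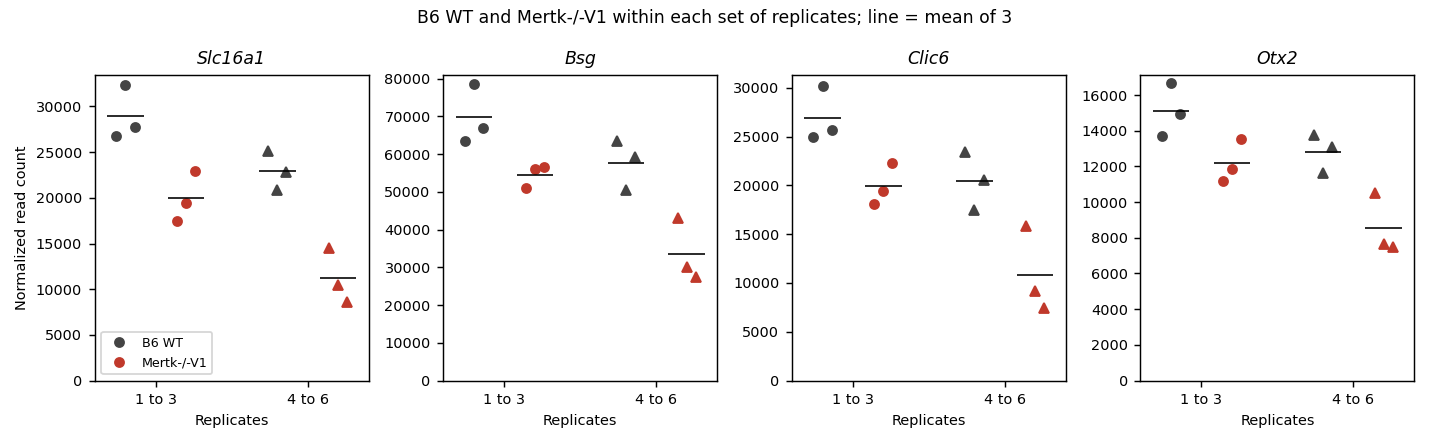
Normalized read counts of Slc16a1, Bsg, Clic6 and Otx2 in B6 WT (grey) and Mertk-/-V1 (red), split by replicate number; lines are means of 3 libraries. In each panel the 3 red points lie below the 3 grey points within replicates 1 to 3 and again within 4 to 6.

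The lines made without 129P2 embryonic stem cells, set against the same 6 B6 WT libraries, gave no call of a member in the model over all RPE libraries. Their own libraries are numbered 1 to 3 only. In Mertk-/-V2, 0 of 10 members passed (0.069% of all genes did), 0 of 10 at an unadjusted p of 0.05 (5.47% of all genes), and the estimates ran from -0.26 for Slc6a20a to 0.49 for Aqp1. Slc16a1 was at 20715, 23082 and 29603 normalized counts, within the B6 WT range but for the first, and its interval was -0.71 to 0.55. Aqp1 was at 3012, 3098 and 4132, of which only the last exceeded every B6 WT library. Its interval was -0.01 to 0.99 (adjusted p = 0.912). Slc6a20a was at 5147, 5284 and 7109, with an interval of -0.89 to 0.38, so a moderate difference in either gene would not have been detectable with 3 libraries.

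In Mertk-/-V3, 0 of 10 members passed (0.069% of all genes), 0 at an unadjusted p of 0.05 (11.1% of all genes), and 9 of 10 estimates were negative. With only B6 WT replicates 1 to 3 as controls, 2627 genes and 0 members were called, where the fit with all 6 called 13 genes. Slc16a1 was then at -0.72 (adjusted p = 0.0811) and Bsg at -0.56 (adjusted p = 0.113). Slc16a1 was at 10677, 19345 and 26137, with a log2 fold change of -0.55 (SE 0.298, adjusted p = 0.466). Bsg was at 32578, 49471 and 65087, with -0.42 (SE 0.259, adjusted p = 0.498). The lowest value of each was replicate 1, the library with few RPE markers. Clcn2 was at 1529, 3531 and 4016, and Slc6a20a at 3237, 6978 and 9563, so that the other 2 libraries lay above the B6 WT median of Clcn2 and on both sides of that of Slc6a20a. Without the 3 libraries lowest in RPE markers the estimates for Mertk-/-V3 were 0.34 for Clcn2 (adjusted p = 0.268) and 0.24 for Slc6a20a (adjusted p = 0.428).

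Mertk-/-V1 was also set against the newer lines, averaged over both. There 0 of 10 members passed (0.207% of all genes), 0 at an unadjusted p of 0.05 (9.56% of all genes), and the estimates ran from -0.49 for Slc16a1 (interval -0.9996 to 0.03, adjusted p = 0.543) to 0.21 for Best1 (-0.29 to 0.71). These comparisons share libraries with those above. Mertk-/-V1 has libraries of both sets of replicate numbers, and the newer lines only of the lower-numbered set. Between these sets, 41.9% of all genes passed the test in B6 WT and Mertk-/-V1. Line and set are thus not separated in this contrast. With the replicate number as a block, more genes but no member were called, and the Slc16a8 estimate turned from negative to positive.

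**Figure D4:**
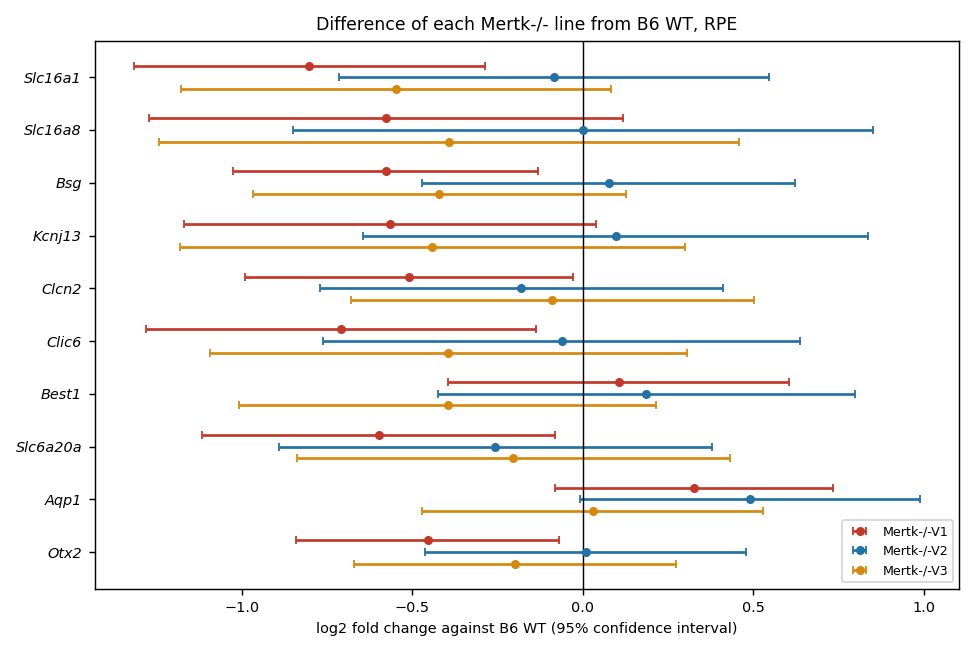
Log2 fold change of each gene against B6 WT in RPE of Mertk-/-V1 (red), Mertk-/-V2 (blue) and Mertk-/-V3 (orange), with 95% confidence intervals from the limma fit. For Mertk-/-V1, 6 intervals lie wholly below 0, and no difference passes the adjusted test.

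In order of the genotype means, Slc16a1, Slc16a8 and Clic6 went from B6 WT over Mertk-/-V2 and Mertk-/-V3 down to Mertk-/-V1. Mertk-/-V1 was also last for Bsg, Kcnj13, Clcn2, Slc6a20a and Otx2. The Mertk-/-V1 means include replicates 4 to 6, which the newer lines lack. Over replicates 1 to 3 alone, Mertk-/-V1 was above Mertk-/-V3 for Slc16a1, Slc16a8, Bsg, Clic6 and Kcnj13. It was still last for Clcn2, Slc6a20a and Otx2. Aqp1 had its highest mean in Mertk-/-V2 (3414 ± 623, n = 3) and its lowest in B6 WT (2459.6 ± 575, n = 6). Best1 was highest in Mertk-/-V2 (35.1 ± 9.61) and lowest in Mertk-/-V3 (22.7 ± 3.89). For every member, neighbours in this order had overlapping ranges, so the order is not resolved.

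Across the 18 RPE libraries, 8 members moved together. Slc16a1, Slc16a8, Bsg, Kcnj13, Clcn2, Clic6, Slc6a20a and Otx2 gave 28 pairs with Pearson r from 0.85 to 0.98 (log2 values), and 0.90 to 0.99 after each genotype's mean was taken off. Aqp1 had r from -0.01 to 0.25 with the other 9, and Best1 from -0.44 to 0.16. The 8 were grouped after these values were seen, and all genes share the same libraries and scaling, so no test is given.

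The 8 genes also followed the RPE marker sum (r 0.90 to 0.99) and ran against the rod sum (r -0.77 to -0.65). The sum of 8 macrophage markers, all detected, was 6417 to 12929 in RPE against 261535 to 287049 in BMDMs, and its r with the 8 genes was 0.83 to 0.95. That r rested on 1 marker, Csf1r, a growth factor receptor gene, which made up 51.4% to 83.4% of the sum in RPE. Without Csf1r, a choice made after seeing the data, r was -0.26 to -0.03. Aqp1 was nearest the sum of 6 smooth muscle and pericyte markers (r 0.72, sums of 4731 to 17087). The erythrocyte sum (r 0.53) and the fibroblast and sclera sum (r 0.46) came next for Aqp1, which is also known from other cells of the eye. Best1 followed no marker sum (r between -0.29 and 0.28). What these cell types contribute to each gene was not tested.

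**Figure D5:**
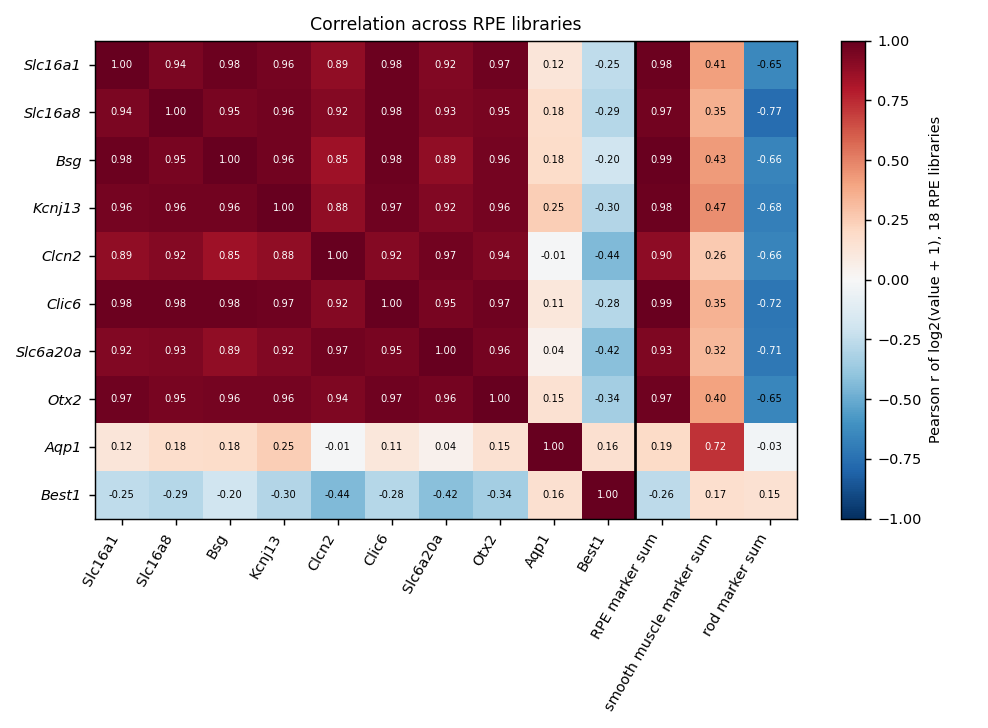
Pearson r of log2(normalized count + 1) between the 10 genes, and with the summed markers of 3 cell types right of the black line, over 18 RPE libraries; red is positive, blue negative. The upper left block of 8 genes is at 0.85 or above, and the rows of Aqp1 and Best1 are pale.

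The gene closest to each member by r was a different one in each case. For Kcnj13 it was Slco1a4, an organic anion transporter (0.99), for Slc16a8 Slc4a2, an anion exchanger (0.99), for Slc16a1 Arsg, a lysosomal sulfatase (0.99), and for Bsg Cst3, cystatin C (0.99). For Clic6 it was Tnfaip2 (0.99), for Clcn2 Cyp4f17 (0.99), for Slc6a20a Scube3 (0.98), and for Otx2 Rrh, peropsin of the RPE (0.98). Aqp1 was closest to Hs3st1 (0.86) and Best1 to Rgs10 (0.78), so even the best match of Best1 was loose. Each was the highest among 18832 genes over 18 libraries.

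Ratios between members within a library do not depend on its scaling. Of the 45 pairs, Mertk-/-V1 lay wholly outside the B6 WT range in 1, where 1.08% of all pairs of 18651 genes did. For Mertk-/-V2 it was 7 pairs (5.03% of all pairs) and for Mertk-/-V3 8 pairs (4.09%). Mertk-/-V1 has 6 libraries and the newer lines 3 each, so these counts cannot be set against each other, and pairs that share a gene are not independent. The pair in Mertk-/-V1 was Slc16a1 over Otx2, at 1.15 to 1.70 against 1.74 to 1.95 in B6 WT. The same ratio was 1.36 to 1.58 in Mertk-/-V3 and 1.71 to 1.76 in Mertk-/-V2, which overlapped B6 WT. Slc16a1 over Otx2 thus lay below the B6 WT range in each library of Mertk-/-V1 and Mertk-/-V3. The pair was picked because it parted, as 1 of 45, so it is not a result about Slc16a1.

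Slc6a20a over Kcnj13 parted the newer lines. It was 2.03 to 2.29 in Mertk-/-V2, 2.59 to 2.92 in B6 WT and 3.20 to 3.24 in Mertk-/-V3, with Mertk-/-V1 across all of these at 2.20 to 3.26. Bsg over Slc16a1, the chaperone over its transporter, was 2.38 to 2.59 in B6 WT, 2.46 to 3.20 in Mertk-/-V1, 2.60 to 3.02 in Mertk-/-V2 and 2.49 to 3.05 in Mertk-/-V3. Aqp1 over Slc16a1 was 0.0616 to 0.157 in B6 WT and 0.121 to 0.300 in Mertk-/-V1, with overlap. All ratios were read with the counts in view and carry no test.

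When log2 of the RPE marker sum was a term in the fit, 185 genes and 0 members were called for Mertk-/-V1. The Mertk-/-V1 estimates ran from -0.19 (Slc16a1, adjusted p = 0.192) to 0.52 (Aqp1, adjusted p = 0.259). Those of Kcnj13 (0.17), Slc16a8 (0.26), Clcn2 and Slc6a20a turned positive, and that of Best1 turned negative. The Aqp1 estimate was larger than without the term. With the rod sum as a term in its place, 259 genes were called. Of the members, Slc16a1 alone was called lower (-0.71, adjusted p = 0.0236). Without the 3 libraries lowest in RPE markers, 0 members were called and Slc16a1 was at -0.48 (adjusted p = 0.326). These fits were chosen after the data were seen, and the marker genes can themselves differ with genotype.

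Other genes of the same functions were read from 3 lists. Of 37 other ion transport genes (36 tested), 34 other solute transporters (34 tested) and 13 RPE transcription factors (13 tested), 0 passed in any of the 4 comparisons of genotypes in RPE. Their median log2 fold changes in Mertk-/-V1 were 0.01, -0.11 and 0.05, beside -0.57 for the 10 members and 0.02 for all genes. At an unadjusted p of 0.05 the ion transport list had 5 lower and none higher, the solute transporters 7 lower and 3 higher, and the transcription factors 1 lower.

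Between replicates 4 to 6 and 1 to 3 the lists had more calls, against the 41.9% of all genes. Of the ion transport genes 8 rose and 7 fell, led by Kcnma1 (2.30), Kcnj10 (1.97), Cacnb2 (1.48) and Slc4a7 (1.48), 3 channel genes and a bicarbonate transporter. Of the solute transporters 8 rose and 5 fell, the largest being Slc16a3 (1.29), Aqp4 (0.97), Slco4a1 (0.92) and Slc39a12 (-0.65). Of the transcription factors 3 rose and 1 fell, among them the photoreceptor factor Crx (2.04) and Tfe3 (0.14) up and Sox9 (-0.55) down. All 8 cone markers rose as well, and all 7 erythrocyte markers fell; the part of these cells in the lists was not tested.

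In BMDMs only 4 members passed the filter on low values, a mean of 10 normalized counts: Bsg, Slc16a1, Best1 and Clcn2. Bsg was at 5934, 6078 and 6223 in B6 WT and at 5242, 5490.1 and 5605 in Mertk-/-V1. All 3 Mertk-/-V1 libraries lay below B6 WT, and Bsg fell (log2 fold change -0.16, SE 0.0410, adjusted p = 0.0347) where 7.07% of 13420 genes passed. At an unadjusted p of 0.05, 23.6% of genes passed there. The call was of a small change, held in edgeR and DESeq2, and was lost with no filter on low values (adjusted p = 0.0755), without either of B6 WT replicates 1 and 2 and without any of the 3 Mertk-/-V1 libraries.

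Bsg was at 5429, 5438 and 5653 in Mertk-/-V2, again below all B6 WT libraries (-0.14, adjusted p = 0.0635, with 4.61% of genes called and 21.4% at an unadjusted p of 0.05), and DESeq2 called it (adjusted p = 0.0344). In Mertk-/-V3 it was at 5930.1, 6186 and 6321, within and above the B6 WT range (0.02, adjusted p = 0.892, with 1.17% of genes called and 15.9% at an unadjusted p of 0.05). Clcn2 was low, at 1.95, 8.22 and 8.97 normalized counts in B6 WT. It was at 8.998 to 14.997 in Mertk-/-V1, 14.1 to 29.4 in Mertk-/-V2 and 9.83 to 18.5 in Mertk-/-V3. Its log2 fold changes of 1.05, 1.67 and 1.10 had adjusted p values of 0.192, 0.0576 and 0.269. No B6 WT library held more than 11 reads of Clcn2, and replicate 3 held 2. The ranges of B6 WT and Mertk-/-V1 nearly met, and each comparison used the same B6 WT libraries. How many of all BMDM genes part from B6 WT in this way was not counted, for Clcn2 or for Bsg.

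Slc16a1 in BMDMs was at 566, 577 and 685 in B6 WT and at 604 to 688 in Mertk-/-V1, 544 to 576 in Mertk-/-V2 and 532 to 559 in Mertk-/-V3. Only Mertk-/-V3 lay outside the B6 WT range, and its difference was -0.15 (interval -0.31 to 0.01, adjusted p = 0.363). The RPE difference of Slc16a1 in Mertk-/-V1, -0.80, had an interval of -1.32 to -0.29, and that in BMDMs, 0.10, an interval of -0.06 to 0.27. Whether the Mertk-/-V1 difference itself differs between the tissues was not tested.

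The 3 lists of related genes were also read in BMDMs, against the shares of all genes called given above. In Mertk-/-V1, Clcn7 (0.33), Trpm7 (0.41), P2ry2 (0.36) and Slc4a2 (0.16) rose among 20 ion transport genes tested, Slc6a6 (0.20) and Slc23a2 (0.30) among 26 solute transporters, and Usf1 (-0.29) fell among 6 transcription factors. In Mertk-/-V2, 5 of 26 solute transporters rose, among them the amino acid carriers Slc7a5 (0.62) and Slc7a11 (1.30), with Slc16a6 (0.42), Slc1a4 (0.46) and Slc38a2 (0.28). No gene of these lists was called in Mertk-/-V3. These genes were named after their values were seen.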

How the data were processed

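RNA was sequenced as 150 bp paired-end reads in 18 RPE and 12 BMDM libraries. The authors trimmed reads with btrim, aligned them with STAR to GRCm38 and scaled gene counts with DESeq2; the counter, annotation and versions are not given in the sources used here. The deposited values are this signal, gene counts divided by a size factor per library. Dividing a library by its smallest value above 0 gave whole reads for 100% of values (tolerance 0.001). Values were tested as log2(value + 1) with limma 3.58.1 (trend) in R 4.3.3, all 4 genotypes of a tissue in 1 model, leaving out genes whose mean was under 10. Fold changes on this scale understate those of low genes. An adjusted p (Benjamini-Hochberg) of 0.05 was the threshold. edgeR 4.0.16 and DESeq2 1.42.0 on recovered reads, another pseudocount (5), no filter, only the groups compared, the replicate block and leaving out each library were alternatives. The steps were tested on simulated data. Positions and exon lengths came from GENCODE release 21 (GRCm38), which matched 55394 of 55573 gene IDs.

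The 10 genes, the lists and the markers were chosen with earlier results of these data known. Named genes were the 10 members, genes of the other lists passing in an RPE comparison (at most 4 per list and comparison, by size), the gene most like each member, exon neighbours, and Mertk; 1 gene that the rule names is not reported here. Replicates are labelled as biological; whether each was a single mouse is not given. In RPE of B6 WT and Mertk-/-V1, the deviations of same-numbered libraries from their group means correlated in all 6 pairs (r 0.119 to 0.724). Only 1 of the 6 B6 WT libraries had its highest r with the Mertk-/-V1 library of its own number. A pairing of single libraries is therefore not shown, and the replicate block is only an alternative fit. The labels do not say what the numbers share. In the other groups the r of same-numbered libraries ran from -0.328 to 0.363. In BMDMs of Mertk-/-V3, 2 of 3 B6 WT libraries matched their own number best, and a pairing is not shown there either. Intervals and floors cover counting error only where stated as such.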

Additional observations from a re-analysis of the deposited data

How the results depend on the processing

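Of 672 alternative values, not counting fits that left out a single library, 572 stayed as in the main fit and 47 changed sign. A value of a gene stayed if it kept its direction and side of the threshold. A count of genes or members called stayed if it was near the count of the main fit. None of the values that changed sign passed the threshold. For single genes the values below are log2 differences, and the cause of a change was not tested. Deviations of same-numbered libraries correlated in all 6 pairs in RPE of Mertk-/-V1 and B6 WT, but only 1 of the 6 was best with its own number. In the other groups r ran from -0.328 to 0.363, and 2 of 3 were best with their own number in BMDMs of Mertk-/-V3. Whether the numbers pair libraries is thus not shown in any group. The replicate block called 2 members in RPE of Mertk-/-V3, Slc16a1 (-0.85, adjusted p = 0.0300) and Bsg (-0.67, adjusted p = 0.0444). It ended the call of Bsg in BMDMs of Mertk-/-V1 (adjusted p = 0.0733). The block changed no other call of a member. With 3 libraries in a group, a left-out library leaves few, and depth limits Best1 and, in BMDMs, Clcn2. A fit with array quality weights did not converge and is not given. The fits with marker sums, and that without the 3 libraries, were chosen after seeing the data. 

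DESeq2 on the recovered reads gave 202 genes called for Mertk-/-V1, 55 genes called and Slc16a8 at -0.037 for Mertk-/-V2, 62 genes called and Clcn2 at 0.021 for Mertk-/-V3, 150 genes called for Mertk-/-V1 against the newer lines, 1 member called for Mertk-/-V2 BMDMs, 401 genes called for Mertk-/-V3 BMDMs. The replicate block gave 131 genes called for Mertk-/-V1, 706 genes called, Kcnj13 at -0.19, Slc16a8 at -0.43, Bsg at -0.17 and Otx2 at -0.18 for Mertk-/-V2, 5619 genes called, 2 members called and Aqp1 at -0.019 for Mertk-/-V3, 2329 genes called and Slc16a8 at 0.055 for Mertk-/-V1 against the newer lines, 565 genes called and 0 members called for Mertk-/-V1 BMDMs, 305 genes called for Mertk-/-V2 BMDMs, 77 genes called for Mertk-/-V3 BMDMs. The set of replicate numbers as a term gave 139 genes called for Mertk-/-V1. A fit within replicates 1 to 3 gave 19 genes called for Mertk-/-V1. A fit within replicates 4 to 6 gave 46 genes called and Aqp1 at -0.042 for Mertk-/-V1. The rod marker sum as a term gave 259 genes called and 1 member called for Mertk-/-V1, 35 genes called, Slc16a1 at 0.040 and Clic6 at 0.084 for Mertk-/-V2, 42 genes called for Mertk-/-V3, 158 genes called for Mertk-/-V1 against the newer lines. The RPE marker sum as a term gave 185 genes called, Best1 at -0.11, Kcnj13 at 0.17, Slc16a8 at 0.26, Clcn2 at 0.033 and Slc6a20a at 0.011 for Mertk-/-V1, Kcnj13 at -0.010, Slc16a8 at -0.12 and Otx2 at -0.056 for Mertk-/-V2, 20 genes called, Slc16a8 at 0.042, Clcn2 at 0.19, Slc6a20a at 0.12 and Otx2 at 0.032 for Mertk-/-V3, 200 genes called, Kcnj13 at 0.20, Slc16a8 at 0.30, Slc16a1 at 0.0089, Bsg at 0.00037, Clcn2 at 0.066, Clic6 at 0.076 and Slc6a20a at 0.13 for Mertk-/-V1 against the newer lines. Leaving out the 3 libraries lowest in RPE markers gave Best1 at -0.016 for Mertk-/-V1, 25 genes called, Kcnj13 at 0.0063, Slc16a8 at 0.080, Clcn2 at 0.34, Slc6a20a at 0.24 and Otx2 at 0.11 for Mertk-/-V3, 687 genes called for Mertk-/-V1 against the newer lines. No filter on low values gave 20 genes called for Mertk-/-V2, 37 genes called for Mertk-/-V3, 606 genes called and 0 members called for Mertk-/-V1 BMDMs, 353 genes called for Mertk-/-V2 BMDMs. Only B6 WT replicates 1 to 3 as controls gave 24 genes called, Slc16a8 at -0.33, Bsg at -0.062 and Otx2 at -0.11 for Mertk-/-V2, 2627 genes called for Mertk-/-V3. Only B6 WT replicates 4 to 6 as controls gave 87 genes called, Slc16a1 at 0.083, Clcn2 at 0.0072 and Clic6 at 0.14 for Mertk-/-V2, Clcn2 at 0.098 and Aqp1 at -0.11 for Mertk-/-V3. edgeR on the recovered reads gave Slc16a8 at -0.041 for Mertk-/-V2, Clcn2 at 0.016 for Mertk-/-V3. Fits of only the groups compared gave 6 genes called for Mertk-/-V3, 17 genes called for Mertk-/-V1 against the newer lines, 69 genes called for Mertk-/-V2 BMDMs, 561 genes called for Mertk-/-V3 BMDMs. B6 WT libraries alone gave 57 genes called, 0 members called and Aqp1 at 0.27 for replicates 4 to 6 against 1 to 3. Over the fits that each left out a library, the ranges were as follows. For Mertk-/-V1 they were Best1 -0.035 to 0.23. For Mertk-/-V2 they were genes called 8 to 12, Kcnj13 -0.065 to 0.23, Slc16a8 -0.11 to 0.11, Slc16a1 -0.23 to 0.027, Bsg -0.030 to 0.14, Clic6 -0.20 to 0.012, Otx2 -0.14 to 0.11. For Mertk-/-V3 they were genes called 5 to 16, Kcnj13 -0.78 to 0.0063, Slc16a8 -0.73 to 0.080, Clcn2 -0.35 to 0.34, Aqp1 -0.20 to 0.22, Slc6a20a -0.54 to 0.24, Otx2 -0.42 to 0.11. For Mertk-/-V1 against the newer lines they were genes called 23 to 186, Aqp1 -0.053 to 0.18. For replicates 4 to 6 against 1 to 3 they were members called 1 to 8, Best1 -0.068 to 0.26, Aqp1 -0.18 to 0.015. For Mertk-/-V1 BMDMs they were genes called 242 to 1196, members called 0 to 1, Best1 -0.13 to 0.85. For Mertk-/-V2 BMDMs they were genes called 146 to 1166, Best1 -0.27 to 0.72. For Mertk-/-V3 BMDMs they were genes called 33 to 251, Best1 -0.30 to 0.69, Bsg -0.0049 to 0.041.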
